A study of Homo sapiens with 6 samples.

Results

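The genes described here encode ATP-binding cassette (ABC) proteins and the main carriers of organic ions. They were taken by symbol from the gene tables of an RNA-seq study of Hep3B cells: ABC subfamilies A to G, the organic anion transporting polypeptides (SLCO genes), the organic ion carriers of family SLC22A, the bile acid carriers of family SLC10A, and SLC47A1 with SLC47A2. SLC22A18 was left out by the rule. The rule found 89 of the 23228 genes in the tables, of which 57 were among the 14537 genes with enough reads to be tested.

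Hep3B, a long-used line of human liver cancer cells, was grown in RPMI medium. The 3 control libraries came from cells given lentivirus with a non-targeting shRNA, a short hairpin RNA that matches no human mRNA. The 3 libraries labelled PELP1-KD came from cells given lentivirus with an shRNA against PELP1, a coregulator protein of nuclear receptors, selected with puromycin as stable clones that were then pooled. The titles name a single PELP1 shRNA while the protocol names a pair, the labels give no time after infection, and nothing says that the 3 libraries of a group came from separate cultures, so p-values measure only the spread between these libraries.

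Hepatocytes are polarized cells. Carriers in their sinusoidal membrane take bile acids, bilirubin conjugates, hormones and drugs out of the blood, and ABC pumps in the canalicular membrane spend ATP to push bile acids, phospholipid, sterols and conjugated compounds into bile. Other ABC proteins sit in peroxisomes, lysosomes and mitochondria or load lipid onto lipoproteins, and a few have no membrane domain and work on ribosomes. Many of the uptake carriers are marks of the differentiated hepatocyte, and several export pumps are known for carrying drugs out of tumor cells.

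The targeted gene was examined first. Control libraries held 5338, 5127 and 5348 PELP1 reads, and those labelled PELP1-KD held 4318, 4135 and 4846. Scaled to library size, the means were 4970 ± 115 and 4695 ± 238 normalized reads (SD, n = 3 each), which left PELP1 RNA at 94.5% of control (log2 fold change −0.08, SE 0.04, edgeR adjusted p = 0.101). A fit blocked on the replicate number called this small fall (adjusted p = 0.0106), as did the fit without PELP1-KD replicate 3 (adjusted p = 0.0180). Directions below are therefore those of the labels, and PELP1-KD stands for the libraries so labelled.

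Reads on genes numbered 26758363 to 34456542 per library. Of 10 hepatocyte markers, 9 were above 1 RPKM (reads per kilobase of exon and per 1e+06 reads, with library sizes scaled by TMM). The 10 summed to 11000 to 11199 RPKM in control and 10026 to 10170 in PELP1-KD. There ALB, TTR, SERPINA1, APOB, TF and APOA1 fell (log2 fold changes −0.61, −0.61, −0.46, −0.46, −0.33 and −0.13). AFP, HNF4A and FGB rose (0.62, 0.23 and 0.17), and TAT was not called (−0.32). Of 4 cholangiocyte markers 3 were above 1 RPKM, with KRT7 near 0, and their sum was 385 to 402 RPKM in control and 628 to 672 RPKM in PELP1-KD, mostly from KRT19. CD14 and CD68 of 4 leukocyte markers and COL1A2 of 4 fibroblast or stellate markers were above 1 RPKM, while PTPRC, CD3E, VWF and DCN were near 0 and the endothelial genes CDH5 and KDR had no read. The summed leukocyte markers were 25.1 to 28.2 RPKM in control and 33.4 to 35.9 in PELP1-KD, and the fibroblast or stellate markers 5.14 to 5.32 and 6.17 to 6.64. Within these lists the markers moved in opposite directions, since CD68 and COL1A2 rose (log2 fold changes 0.48 and 0.51) while CD14 and PDGFRB fell (−0.98 and −2.13). The part of these markers in the results below was not tested.

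As a set of genes the transporters moved in both directions. By edgeR's quasi-likelihood test with an adjusted p below 0.05, which called 53.6% of all tested genes, 34 of the 57 tested members (59.6%) were called. Of these, 17 were higher in PELP1-KD, where 26.8% of all genes were, and 17 were lower, where again 26.8% of all genes were. The shares of called members thus lay near those of the whole table. By family, 34 of 46 ABC genes were tested, with 9 higher and 10 lower, and 7 of 12 SLCO genes, with 4 higher and 2 lower. Of 22 SLC22A genes 11 were tested, with 4 higher and 5 lower, and none of the 4 tested SLC10A genes or SLC47A1 was called. The median log2 fold change of the members was −0.08, beside 0.0044 for all tested genes, and their median absolute log2 fold change was 0.30, beside 0.20.

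The larger changes were mostly falls. At least 2-fold changes with a call were seen in 9 of the 57 members (15.8%, beside 7.65% of all genes), of which 7 were lower (12.3%, beside 4.79%) and 2 were higher (3.51%, beside 2.85%). The members lower by at least 2-fold were SLCO1B3, SLC22A25, SLCO1B1, SLC22A15, SLC22A3, ABCA3 and SLC22A10, and those higher were ABCA10 and ABCG2. Of the 9, SLC22A25, SLC22A10, SLCO1B1, SLC22A15 and ABCA10 averaged under 100 normalized reads over the 6 libraries. Among the 39 members that averaged 100 or more, 14 were higher, 11 lower and 14 not called, and 1 rose and 3 fell at least 2-fold. The values of the groups did not overlap for 36 of the 57 tested members (63.2%, beside 58.8% of all tested genes).

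**Figure D1:**
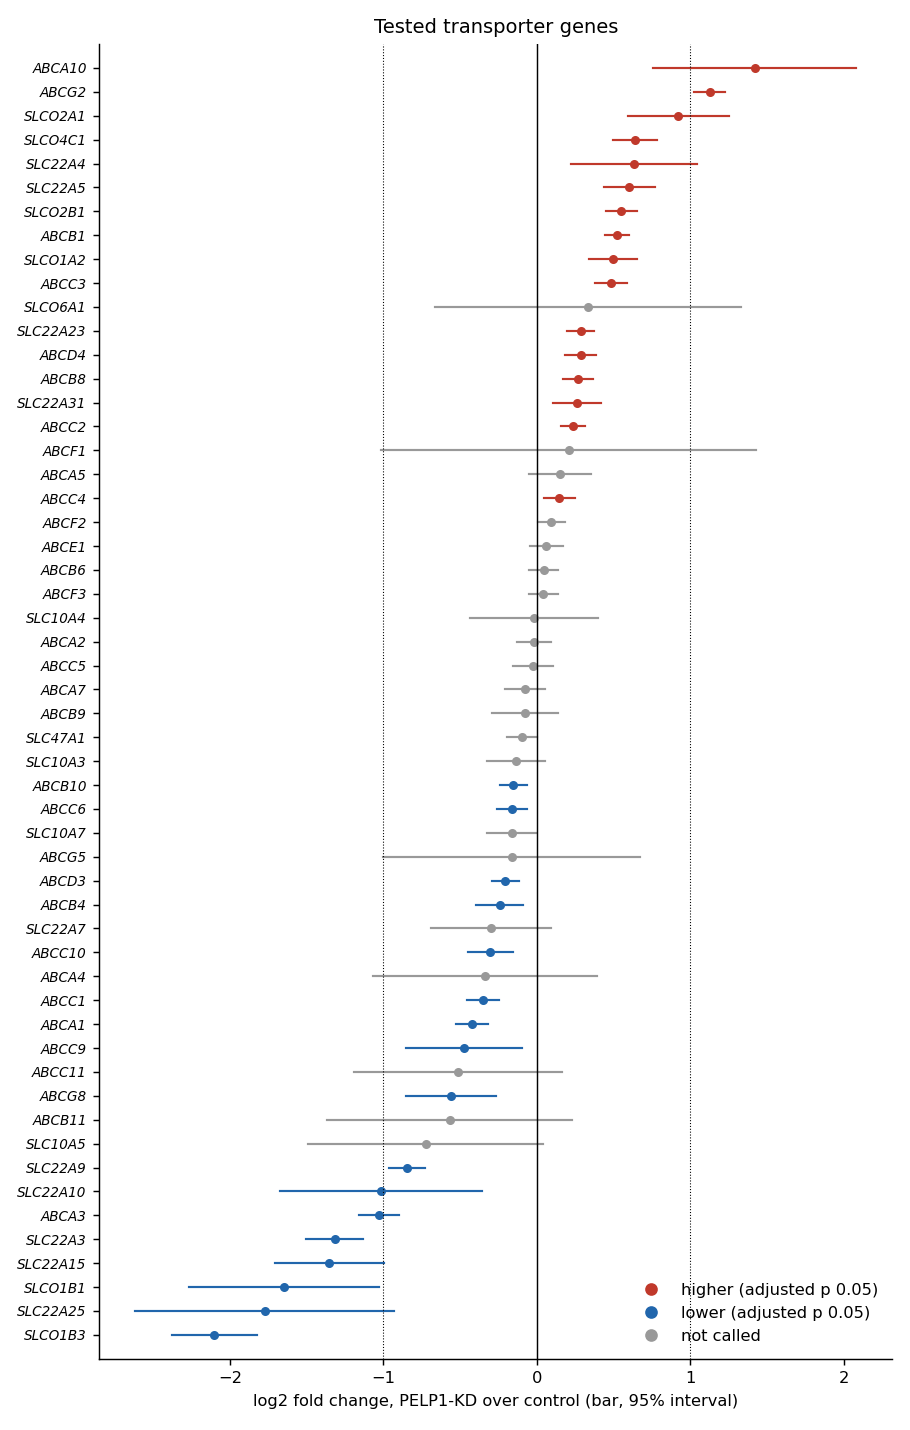
Log2 fold change of PELP1-KD over control for 54 of the 57 tested transporter genes (points) with its 95% interval (bars), ordered by size; red marks genes called higher, blue genes called lower and grey genes not called, and the dotted lines mark a 2-fold change. SLCO1B3 lies lowest at −2.10, ABCA10 and ABCG2 lie past the upper line at 1.42 and 1.13, and called genes lie on both sides of 0.

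Among the carriers of the sinusoidal membrane was SLCO1B3, the member with the largest fall. The 9 genes of this group were listed by name, SLCO1A2 among them, and where their proteins sit in Hep3B was not measured. Of the 9 genes 8 were tested. Of these, 4 were lower (SLCO1B3, SLCO1B1, SLC22A3, SLC22A9), 2 were higher (SLCO2B1, SLCO1A2) and 2 were not called, SLC22A7 among them. The median log2 fold change of the group was −0.57. In bulk RNA, fewer cells of a type and less RNA per cell cannot be told apart.

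SLCO1B3 and SLCO1B1 encode OATP1B3 and OATP1B1, the liver-specific carriers that take up bilirubin conjugates, bile acids and statins. SLCO1B3 had 257, 294 and 263 reads in control and 69, 46 and 54 in PELP1-KD, so that every PELP1-KD value lay far below every control value. Its mean dropped from 256 ± 23.5 normalized reads to 59.4 ± 9.72 (SD, n = 3 each), or 23.3% of control (log2 fold change −2.10, SE 0.13, adjusted p = 6.00e-11). SLCO1B1 was rarer, with 41, 39 and 30 reads in control and 11, 7 and 13 in PELP1-KD. It fell to 31.8% of control (log2 fold change −1.65, 95% interval −2.27 to −1.03, adjusted p = 9.83e-05). SLCO1B7, their neighbor on chromosome 12, had too few reads for the test, with 24 in the control libraries together and 2 in PELP1-KD, 10.6 times as many after scaling (95% interval from counting error alone, 2.62 to 92.3). These genes resemble each other in sequence, so reads of one could be counted for another, though every deposited value of SLCO1B3, SLCO1B1 and SLCO1B7 was whole.

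The promoter windows of SLCO1B3 and SLCO1B1 are shown because both genes fell and lie in the same stretch, with SLCO1B7 between them. Each is the 250 bases before the RefSeq start on GRCh38.p14, 5′ to 3′ on the plus strand of chromosome 12, at chr12:20810455-20810704 for SLCO1B3 and chr12:21130944-21131193 for SLCO1B1. Capitals mark the letters GTTAATCAT, a match to GTTAATNAT, a short motif that was chosen after the windows had been seen.
SLCO1B3: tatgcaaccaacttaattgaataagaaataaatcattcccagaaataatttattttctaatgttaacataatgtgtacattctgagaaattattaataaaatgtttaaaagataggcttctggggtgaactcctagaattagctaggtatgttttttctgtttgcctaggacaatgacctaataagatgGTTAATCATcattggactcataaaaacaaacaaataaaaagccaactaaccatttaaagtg
SLCO1B1: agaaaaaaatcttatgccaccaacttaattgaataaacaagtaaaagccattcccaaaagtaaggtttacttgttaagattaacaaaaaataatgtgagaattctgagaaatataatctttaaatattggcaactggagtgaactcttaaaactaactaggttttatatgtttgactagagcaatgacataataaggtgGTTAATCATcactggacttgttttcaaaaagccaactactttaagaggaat
In a global alignment without penalty for gaps at the ends, the windows were identical at 187 of 224 aligned bases (83.5%). The longest identical run was 18 bases. The capitals begin 61 bases before the start of SLCO1B3 and 51 bases before that of SLCO1B1. On either strand GTTAATNAT was in 254 of the 35116 RefSeq promoter windows, cut in the same way to the 250 bases before the start (0.723%). Of the 86 windows of members, 2 held it, those of SLCO1B3 and SLCO1B1. Since these windows are largely identical, their 2 matches are not independent of each other. The short motif is the first part of a longer one, which was also searched. The longer motif was in 2 of the 35116 windows (0.0057%) and in none of the members' windows.

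SLC22A3 encodes OCT3, a carrier of organic cations, and fell as clearly. Its reads were 530, 463 and 518 in control and 204, 146 and 190 in PELP1-KD. The level dropped from 475 ± 27.0 normalized reads to 190 ± 19.3 (SD, n = 3 each), or 40.1% of control (log2 fold change −1.32, SE 0.09, adjusted p = 1.68e-10). SLC22A9 encodes OAT7, an anion carrier found mainly in liver. It had 1287, 1312 and 1227 reads in control and 632, 574 and 688 in PELP1-KD. This carrier was the most abundant of the sinusoidal group per length in control at 16.6 RPKM, and fell to 55.6% of its control level (log2 fold change −0.85, SE 0.06, adjusted p = 1.22e-10). In PELP1-KD, SLCO2B1 stood above it.

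Against these falls, SLCO2B1 and SLCO1A2 rose. SLCO2B1, which encodes OATP2B1, a carrier of steroid sulfates and statins, had 1918, 1642 and 1808 reads in control and 2470, 2032 and 2503 in PELP1-KD. It rose from 1686 ± 98.3 normalized reads to 2467 ± 84.0 (SD, n = 3 each), or 12.1 to 17.6 RPKM (log2 fold change 0.55, SE 0.05, adjusted p = 9.94e-09). SLCO1A2, which encodes OATP1A2, had 332, 321 and 300 reads in control and 419, 368 and 410 in PELP1-KD. It rose to 141% of control (log2 fold change 0.50, SE 0.08, adjusted p = 1.41e-05). The RPKM of the 9 sinusoidal genes summed to between 36.9 and 37.3 in the control libraries and between 30.6 and 32.0 in PELP1-KD, so the groups did not overlap.

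SLC10A1 and SLC22A7 were rare. SLC10A1, which encodes NTCP, the main bile acid uptake carrier and the receptor of hepatitis B virus, had 0, 0 and 0 reads in control and 1, 1 and 1 in PELP1-KD. Its RNA was thus at or under the level that 3 reads in a library allow, which was 0.0871 to 0.112 reads per 1e+06, and no fold is given. SLC22A7, which encodes the anion carrier OAT2, had 89, 70 and 77 reads in control and 47, 47 and 77 in PELP1-KD, so its groups overlapped through PELP1-KD replicate 3. It was not called (log2 fold change −0.30, 95% interval −0.69 to 0.09, adjusted p = 0.186) and was called lower without that library (−0.53, adjusted p = 0.0273).

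**Figure D2:**
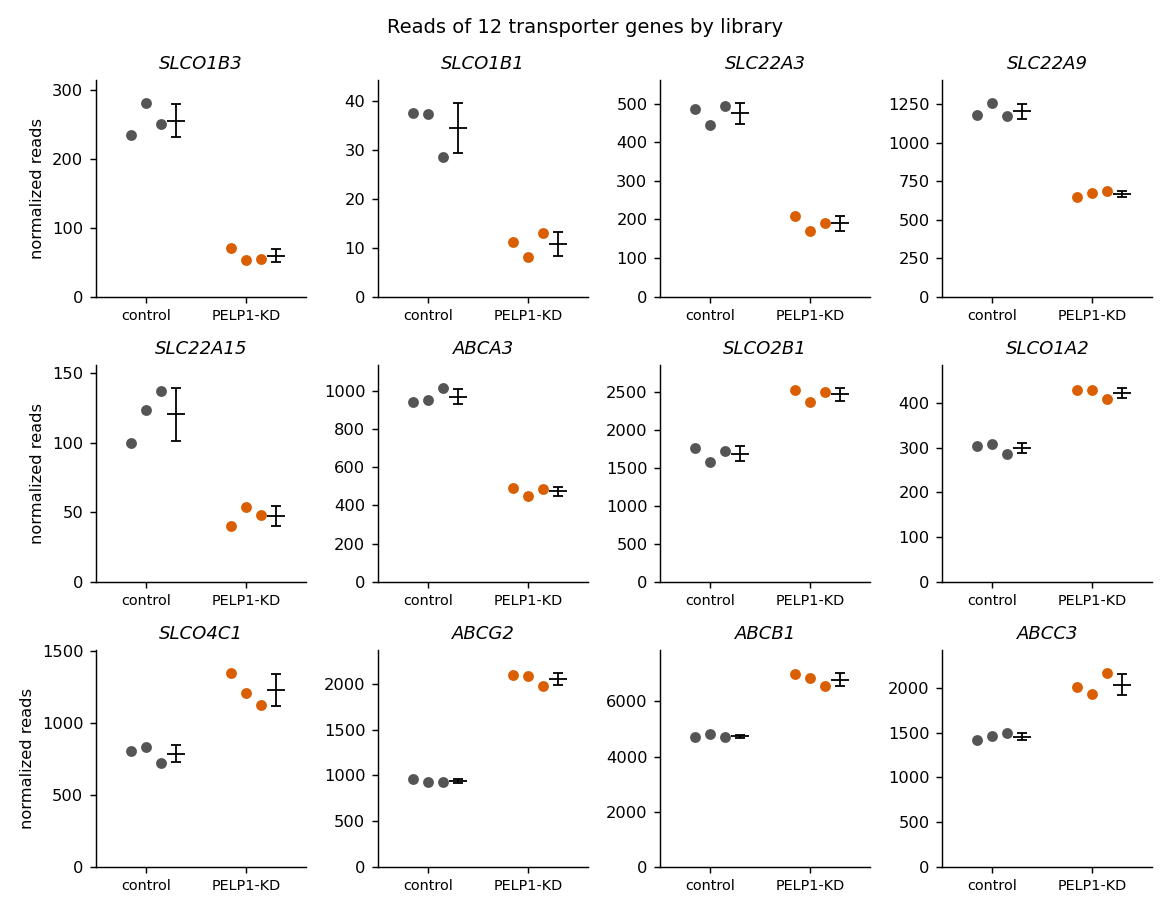
Normalized reads (reads scaled to library size, linear axes from 0) of 12 transporter genes in each of the 3 control and 3 PELP1-KD libraries (points), with the mean and SD of each group (bars). In each panel the groups are apart: the first 6 genes, SLCO1B3 to ABCA3, are lower in PELP1-KD and the last 6, SLCO2B1 to ABCC3, are higher.

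The pumps of the bile canaliculus showed a different mix. All 8 were tested, of which 3 were higher (ABCG2, ABCB1, ABCC2), 2 were lower (ABCG8, ABCB4) and 3 were not called (ABCB11, ABCG5, SLC47A1). Their median log2 fold change was −0.13, whereas their summed level rose from between 83.1 and 84.6 RPKM in control to between 106 and 111 in PELP1-KD. ABCB1 made up the largest part of that sum.

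ABCG2 encodes BCRP, an exporter of urate, porphyrins and many drugs. It had 1050, 967 and 977 reads in control and 2042, 1788 and 1982 in PELP1-KD, so every PELP1-KD value lay far above every control value. ABCG2 rose from 940 ± 19.3 normalized reads to 2052 ± 62.9 (SD, n = 3 each), or 218% of control, and had the smallest p of all tested members (log2 fold change 1.13, SE 0.05, adjusted p = 1.56e-13). ABCB1 encodes P-glycoprotein, the multidrug pump. Its reads were 5134, 5016 and 4919 in control and 6838, 5854 and 6556 in PELP1-KD. ABCB1 rose to 143% of control (log2 fold change 0.52, SE 0.04, adjusted p = 4.20e-10) and went from 32.0 to 45.8 RPKM. ABCC2, which encodes MRP2, the exporter of conjugated bilirubin, rose to 118% (log2 fold change 0.23, SE 0.04, adjusted p = 3.33e-05) from 4338 ± 86.9 normalized reads to 5103 ± 158 (SD, n = 3 each).

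ABCB4 encodes MDR3, the flippase that supplies phosphatidylcholine to bile, and lies next to ABCB1. It had 505, 441 and 445 reads in control and 359, 320 and 368 in PELP1-KD, all below the control values. ABCB4 fell to 84.6% of control (log2 fold change −0.24, SE 0.07, adjusted p = 0.00889), a call that was lost without control replicate 1 (−0.20, adjusted p = 0.0634). ABCG5 and ABCG8 encode the partners of the heterodimer that exports cholesterol and plant sterols. ABCG8 had 121, 127 and 125 reads in control and 80, 58 and 88 in PELP1-KD, and fell to 67.9% (log2 fold change −0.56, adjusted p = 0.00244). ABCG5 was rare, with 12, 8 and 19 reads against 12, 7 and 12, and was not called (log2 fold change −0.17, 95% interval −1.01 to 0.67).

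ABCB11, which encodes BSEP, the bile salt export pump, had few reads. It had 17, 13 and 17 reads in control and 8, 13 and 7 in PELP1-KD, or 0.0983 and 0.0674 RPKM, and its interval of −1.37 to 0.23 on the log2 scale includes both a clear fall and no change. SLC47A1 encodes MATE1, which exchanges organic cations for protons. It had 1436, 1356 and 1378 reads in control and 1175, 1058 and 1234 in PELP1-KD, a log2 fold change of −0.10 (SE 0.05, adjusted p = 0.0836), and the replicate block called it lower (adjusted p = 0.0349).

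Among the other pumps of the plasma membrane, of 7 tested genes 2 were higher (ABCC3, ABCC4), 3 were lower (ABCC1, ABCC10, ABCC6) and 2 were not called (ABCC5, ABCC11), with a median log2 fold change of −0.16. ABCC3 encodes MRP3, which returns conjugates from hepatocytes to blood. Its reads were 1548, 1522 and 1565 in control and 1962, 1659 and 2169 in PELP1-KD, and it rose to 140% of control (log2 fold change 0.48, SE 0.05, adjusted p = 8.15e-08). ABCC4 encodes MRP4, an exporter of cyclic nucleotides and bile acids. It had 1882, 1880 and 1756 reads against 1983, 1631 and 1825, or 1734 ± 63.9 and 1919 ± 105 normalized reads (SD, n = 3 each), which did not overlap. The call of ABCC4 as higher (log2 fold change 0.15, adjusted p = 0.0174) was lost without control replicate 1, control replicate 3 or PELP1-KD replicate 1 (adjusted p = 0.0564, 0.0684 and 0.0943).

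ABCC1 encodes MRP1, the glutathione conjugate pump. It had 1406, 1420 and 1420 reads in control and 1000, 895 and 1068 in PELP1-KD, and fell to 78.3% of control (log2 fold change −0.35, SE 0.05, adjusted p = 5.88e-06). ABCC6, the gene of pseudoxanthoma elasticum, whose protein drives ATP release from liver cells, had 2384, 2190 and 2302 reads in control and 1779, 1643 and 2047 in PELP1-KD. It fell to 89.3% (log2 fold change −0.16, adjusted p = 0.00661), and its reads could be shared with the pseudogenes ABCC6P1 and ABCC6P2 of the same annotation. ABCC10, chosen with its values in view, fell to 81.1% (log2 fold change −0.30, adjusted p = 0.00127). ABCC5 (log2 fold change −0.03, 95% interval −0.16 to 0.11) and ABCC11 (−0.51, 95% interval −1.19 to 0.17) were not called, and ABCC11 was called lower without PELP1-KD replicate 1 (−0.93, adjusted p = 0.0420). Of the sulfonylurea receptors, which are the regulatory subunits of ATP-sensitive potassium channels, ABCC8 had no read in any of the 6 libraries. ABCC9 had 68, 63 and 69 reads against 46, 39 and 43 (log2 fold change −0.48, adjusted p = 0.0318), a call that was lost with DESeq2 (adjusted p = 0.0967) and without any 1 library other than PELP1-KD replicate 1.

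Of the 14 lipid and cholesterol transporters, 7 were tested, of which 2 fell (ABCA3, ABCA1), 1 rose (ABCA10) and 4 were not called (ABCA2, ABCA4, ABCA5, ABCA7). ABCA3, the phospholipid pump of lamellar bodies, had 1026, 996 and 1065 reads in control and 481, 384 and 486 in PELP1-KD. Its mean dropped from 970 ± 40.1 normalized reads to 475 ± 23.9 (SD, n = 3 each), or 49.1% of control (log2 fold change −1.03, SE 0.06, adjusted p = 4.02e-11). ABCA1, which loads cholesterol onto apolipoprotein A-I, had 2159, 2125 and 2045 reads in control and 1546, 1260 and 1393 in PELP1-KD. It fell to 74.5% of control (log2 fold change −0.43, SE 0.05, adjusted p = 6.22e-07). ABCG1, a partner of ABCA1 in cholesterol efflux, was too rare to test, with 9, 10 and 8 reads against 3, 0 and 6, a ratio of control over PELP1-KD of 2.64 (95% interval from counting error alone, 1.21 to 6.39).

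ABCA10 showed the largest rise among the members, from very few reads. It had 11, 13 and 8 reads in control and 31, 20 and 26 in PELP1-KD (log2 fold change 1.42, 95% interval 0.76 to 2.08, adjusted p = 0.000829). It shares 287 exon bases with its neighbor ABCA5, whose reads were 406, 315 and 369 against 410, 338 and 328 (log2 fold change 0.15, adjusted p = 0.199), and was chosen with its values in view. The deposited values of ABCA10 were whole in all 6 libraries. How reads on the shared bases were assigned was not tested, so the value of ABCA10 is uncertain. ABCA5 was called higher without PELP1-KD replicate 3 (0.25, adjusted p = 0.0159). Of the others that were not called, ABCA2 had a log2 fold change of −0.02 (95% interval −0.13 to 0.09), ABCA7 of −0.08 (−0.21 to 0.05) and the rare retinal transporter gene ABCA4 of −0.34 (−1.07 to 0.39).

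The windows of ABCA3 and ABCG2 are shown because these genes had the smallest p among members lower and higher by at least 2-fold, and both hold the core letters of the aryl hydrocarbon receptor (AHR) site, GCGTG. Both lie on minus strands of GRCh38.p14 and are written 5′ to 3′ up to the RefSeq start, at chr16:2340729-2340978 for ABCA3 and chr4:88158860-88159109 for ABCG2. Capitals mark GCGTG or its reverse complement CACGC.
ABCA3: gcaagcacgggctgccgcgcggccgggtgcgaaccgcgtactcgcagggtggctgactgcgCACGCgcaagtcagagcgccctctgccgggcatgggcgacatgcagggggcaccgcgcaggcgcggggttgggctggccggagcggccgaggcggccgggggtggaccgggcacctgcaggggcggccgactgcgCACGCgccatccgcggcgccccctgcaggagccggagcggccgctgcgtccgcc
ABCG2: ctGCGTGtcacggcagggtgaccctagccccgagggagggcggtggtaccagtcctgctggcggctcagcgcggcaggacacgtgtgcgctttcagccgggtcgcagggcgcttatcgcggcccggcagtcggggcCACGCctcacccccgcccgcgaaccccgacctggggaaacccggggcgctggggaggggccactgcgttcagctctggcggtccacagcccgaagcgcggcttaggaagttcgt
The capitals begin 189 and 54 bases before the start of ABCA3 and 248 and 114 bases before that of ABCG2. ABCG2 has 5 RefSeq windows, of which 3 hold GCGTG, and the first with the most matches is shown. GCGTG is common, since on either strand it was in 32.2% of all windows and in 27 of the 86 windows of members (31.4%). By gene, it was in 4 of 14 members called higher, 5 of 13 called lower and 9 of 17 not called that had a window. TGACNNNGC, the core of the NRF2 site, was in 11 of the members' windows (12.8%, beside 10.9% of all), and CACGTG, the E-box, in 10 (11.6%, beside 6.34%). In ABCA3 a TGACNNNGC match overlaps a GCGTG match by 1 base. The direct repeats DR4 and DR1, sites of nuclear receptor dimers searched without mismatch, were in 0.0142% and 0.0171% of all windows and in none of the members' windows. These are letters in a window and say nothing of binding.

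Of the carriers of organic cations and carnitine outside the sinusoidal group, and of the other OATP genes, those that were tested were mostly higher. Of 8 cation and carnitine genes 4 were tested, of which SLC22A5, SLC22A4 and SLC22A23 rose and SLC22A15 fell. SLC22A5 encodes OCTN2, the plasma membrane carnitine carrier. It had 417, 403 and 336 reads in control and 513, 474 and 577 in PELP1-KD, and rose from 363 ± 36.9 normalized reads to 552 ± 25.6 (SD, n = 3 each; log2 fold change 0.60, SE 0.08, adjusted p = 2.70e-06). Its neighbor SLC22A4, the ergothioneine carrier OCTN1, was chosen with its values in view and had 49, 54 and 37 reads against 75, 50 and 69. SLC22A4 was called higher by about as much (log2 fold change 0.63, adjusted p = 0.0105), a call that was lost without control replicate 3 (0.50, adjusted p = 0.0536). SLC22A23, an orphan carrier, had 2242, 2205 and 2192 reads against 2392, 2190 and 2625 and rose to 122% of control (log2 fold change 0.28, SE 0.04, adjusted p = 1.14e-05).

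SLC22A15, a carrier of zwitterions, moved the other way. It had 109, 129 and 144 reads in control and 39, 46 and 48 in PELP1-KD, and fell to 39.2% of control (log2 fold change −1.35, SE 0.17, adjusted p = 1.53e-06). Of 7 other OATP genes, 3 were tested, and SLCO4C1 and SLCO2A1 rose. SLCO4C1, known as a kidney carrier of digoxin and thyroid hormone, had 882, 869 and 755 reads in control and 1315, 1034 and 1129 in PELP1-KD. It rose from 787 ± 59.3 normalized reads to 1227 ± 111 (SD, n = 3 each; log2 fold change 0.64, SE 0.07, adjusted p = 1.40e-07). SLCO2A1, the prostaglandin carrier, chosen with its values in view, had 66, 60 and 67 reads against 96, 116 and 113 (log2 fold change 0.92, SE 0.16, adjusted p = 5.30e-05). SLCO6A1, the third, had 24 reads in control and 27 in PELP1-KD and was not called.

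Besides SLC10A1, the bile acid carrier family was represented by genes with less known functions. SLC10A3 had 504, 444 and 465 reads in control and 332, 387 and 423 in PELP1-KD, which overlapped after scaling (log2 fold change −0.14, 95% interval −0.32 to 0.05). SLC10A7 had 549, 505 and 463 reads against 435, 369 and 400 (log2 fold change −0.17, adjusted p = 0.0718), and was called lower with the block (adjusted p = 0.0341) and without control replicate 3 (−0.21, adjusted p = 0.0367). SLC10A5 was rare, with 24, 11 and 21 reads against 10, 10 and 10, and was called lower only without control replicate 2 (−0.98, adjusted p = 0.0354). None of these was called in the comparison of all 6 libraries, nor was SLC10A4 (log2 fold change −0.02, 95% interval −0.44 to 0.40). SLC22A31, an orphan gene of the SLC22A family, had 449, 407 and 439 reads against 435, 432 and 513 and rose to 120% of control (log2 fold change 0.26, SE 0.08, adjusted p = 0.00665).

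**Figure D3:**
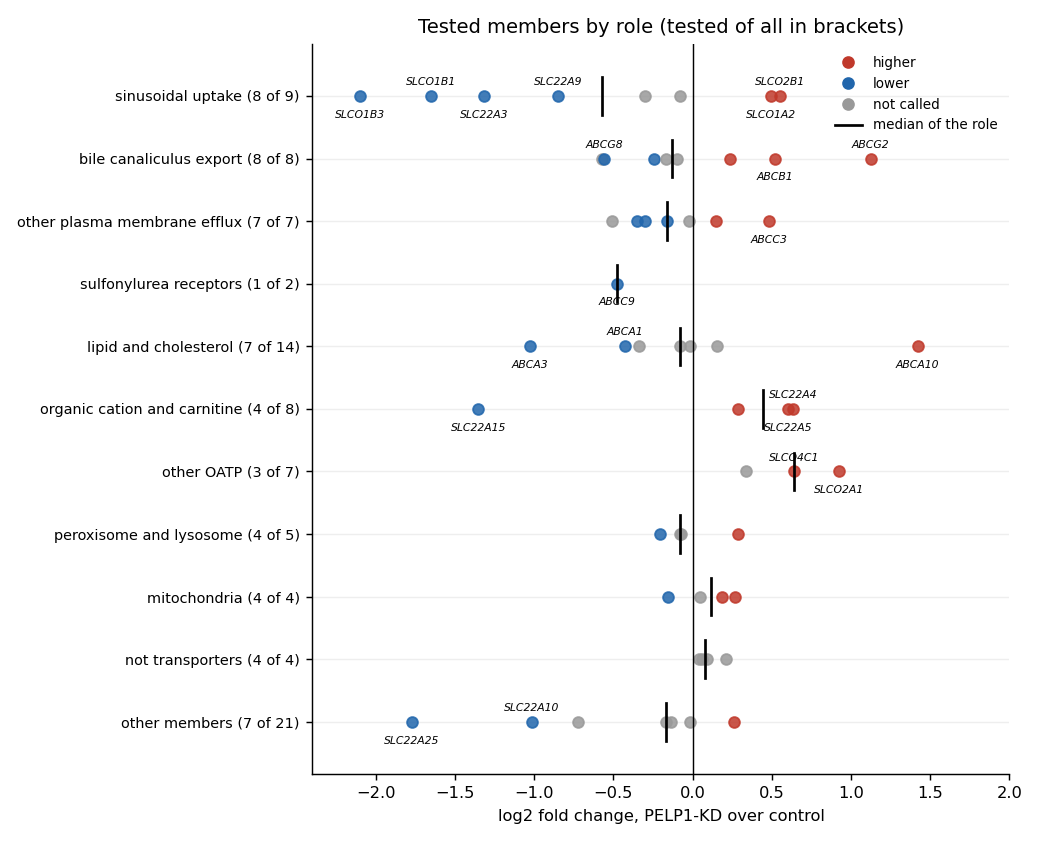
Log2 fold change of PELP1-KD over control (horizontal axis) of each tested member, in rows by its role in the cell; each point is a gene, red called higher, blue called lower and grey not called, the vertical bar is the median of the row, and brackets give how many of the row's genes were tested. The sinusoidal row reaches from −2.10 to 0.55 with a median of −0.57, and the row of proteins that are not transporters stays between 0.04 and 0.21.

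In mitochondria, where ABC proteins serve heme and iron-sulfur cluster metabolism, ABCB8 rose (log2 fold change 0.27), ABCB10 fell and ABCB6 was not called. ABCB10 had 2815, 2604 and 2583 reads against 2268, 1932 and 2198 and was at 89.8% of control (log2 fold change −0.16, SE 0.04, adjusted p = 0.00415). ABCB6 had 2629, 2584 and 2770 reads against 2483, 2156 and 2706 (log2 fold change 0.04, 95% interval −0.05 to 0.14).

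Of 5 genes of peroxisomes and lysosomes 4 were tested. ABCD3, which encodes PMP70, the peroxisomal importer of branched-chain fatty acids and bile acid precursors, had 5113, 5015 and 4738 reads against 4148, 3480 and 3840, and fell to 86.6% of control (log2 fold change −0.21, SE 0.04, adjusted p = 0.000389). ABCD4, which takes part in lysosomal cobalamin export, rose to 122% (log2 fold change 0.28, adjusted p = 5.06e-05). The lysosomal peptide transporter ABCB9 had a log2 fold change of −0.08 (95% interval −0.30 to 0.14).

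The ABC proteins with no membrane domain were not called. ABCE1, which splits ribosomes after termination, had 6351, 6086 and 5687 reads in control and 6099, 5351 and 5349 in PELP1-KD (log2 fold change 0.06, 95% interval −0.05 to 0.17). It was called higher without PELP1-KD replicate 3 (0.13, adjusted p = 0.00131). ABCF2 had 4717, 4190 and 4642 reads against 4508, 3778 and 4601 (log2 fold change 0.09, adjusted p = 0.0673) and was called higher with the replicate block (adjusted p = 0.00451) and without control replicate 3 (0.13, adjusted p = 0.0270). ABCF3, a translation factor like its relatives, had 2067, 1970 and 2003 reads against 1835, 1667 and 2038 (log2 fold change 0.04, 95% interval −0.05 to 0.13). ABCF1 has exons on 7 sequences of hg19, and how reads that matched several of these were counted was not tested. Its 124 to 324 reads per library are thus an uncertain level. It was not called (log2 fold change 0.21, 95% interval −1.01 to 1.43), and was called higher without control replicate 2 (0.74, adjusted p = 0.000643).

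Members that lie close together were then compared, with 49 of the 89 in 18 clusters of neighbors no more than 1 Mb apart (positions on hg19). On chromosome 12 the plus-strand genes SLCO1B3 (20963638 to 21069658) and SLCO1B1 (21284128 to 21392730) fell, while SLCO1A2, on the minus strand at 21417534 to 21548371, rose. Other genes within 1 Mb of SLCO1B3 had a median log2 fold change of 0.13. On chromosome 11 the 3 tested SLC22A genes of one stretch fell. SLC22A25 (62931296 to 62997124) had 17, 20 and 29 reads against 7, 3 and 7 (log2 fold change −1.77, adjusted p = 0.00101), and SLC22A10 (63057430 to 63079246) had 21, 33 and 28 against 10, 13 and 13 (−1.01, adjusted p = 0.0107). Both are rare, were chosen with their values in view, and lie beside SLC22A9 (63137261 to 63177712), which also fell. The call of SLC22A10 was lost without control replicate 2 (−0.84, adjusted p = 0.0631), and other genes within 1 Mb of SLC22A9 had a median of −0.02.

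On chromosome 7, ABCB4 (87031361 to 87105019) fell while ABCB1 (87133179 to 87342639), on the same strand, rose. The neighbors SLC22A4 and SLC22A5 on chromosome 5 (131630145 to 131731306 together) both rose, and ABCC1 and ABCC6 on chromosome 16 (16043434 to 16317328 together) both fell. On chromosome 6, SLC22A3 (160769425 to 160876014) fell, while SLC22A2 had 4 reads in all. SLC22A7 (43265998 to 43273276) and ABCC10 (43395292 to 43418163) on the same chromosome had log2 fold changes of −0.30 each, in a stretch where other genes within 1 Mb had medians of −0.41 and −0.40. Neighboring members thus moved together in some places and apart in others.

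**Figure D4:**
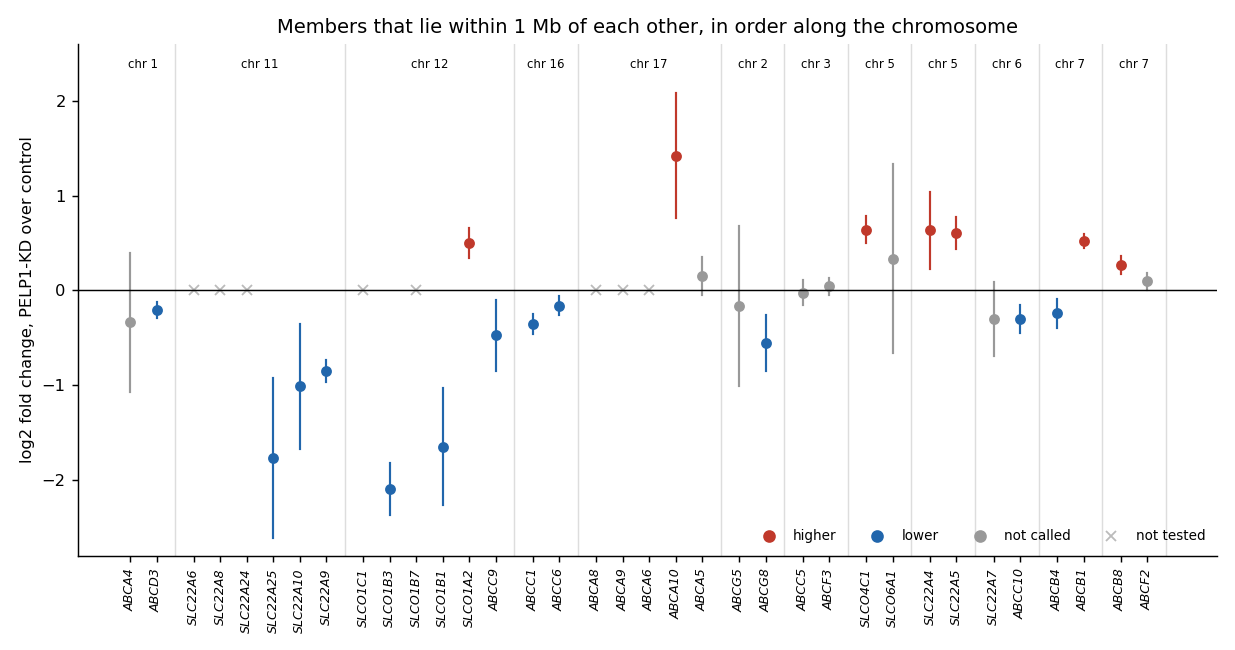
Log2 fold change of PELP1-KD over control with its 95% interval for members that lie within 1 Mb of each other, in stretches with at least 2 tested genes shown, ordered along each chromosome and separated by vertical lines; red marks genes called higher, blue called lower, grey not called, and crosses genes not tested, placed at 0. On chromosome 12 SLCO1B3 and SLCO1B1 lie at −2.10 and −1.65 and SLCO1A2 at 0.50, and on chromosome 7 ABCB4 lies at −0.24 and ABCB1 at 0.52.

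Levels were compared between genes per length. Of the 89 members 17 had a mean of at least 10 RPKM, 22 lay from 1 to under 10 and 50 were under 1. Over all 6 libraries the order of mean level was ABCE1 (44.2 RPKM), ABCB1 (38.9), ABCF2 (36.7), ABCD3 (36.5), ABCC2 (29.7), ABCB6 (26.9), ABCF3 (23.8) and ABCB10 (19.7). The ranges over libraries of the first 5 each overlapped that of the next gene in the order, while those of ABCB6 and ABCF3, of ABCF3 and ABCB10, and of ABCB10 and SLCO2B1 did not. The order shifted between the groups. ABCB1 went from rank 4 in control (32.0 RPKM) to rank 1 in PELP1-KD (45.8), ABCG2 from rank 22 (6.75 RPKM) to rank 10 (14.7), and SLC22A9 from rank 9 (16.6 RPKM) to rank 19 (9.21). The members together took 0.194% to 0.196% of the reads of a control library and 0.207% to 0.214% of those of a PELP1-KD library.

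**Figure D5:**
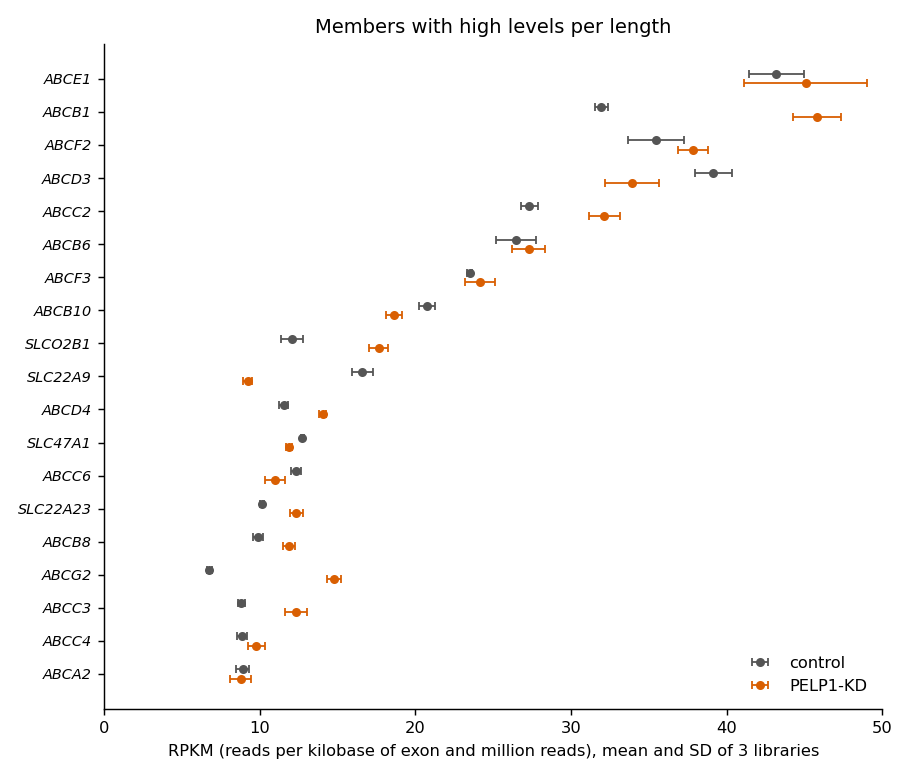
Level per length (RPKM, linear axis from 0) of 19 members with high levels, as the mean (point) and SD (bar) of 3 control and 3 PELP1-KD libraries, ordered by the mean over all 6. ABCB1 moves from 32.0 to 45.8 RPKM and SLC22A9 from 16.6 to 9.21, while ABCF3 and ABCB6 keep their place near 24 and 27.

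The 32 members that were not tested had at most 54 reads over the 6 libraries, and 10 of them had none. The latter were ABCC8, ABCC12, ABCG4, SLC10A2, SLC10A6, SLC22A6, SLC22A12, SLC22A16, SLC22A24 and SLC47A2, among them SLC22A6, an anion carrier of the kidney, and SLC10A2, the bile acid carrier of the ileum. Another 10 had 1 to 9 reads in all and 12 had 10 or more. Besides SLCO1B7 and ABCG1, the counting interval of the ratio of control over PELP1-KD excluded 1 for the peroxisomal ABCD2 (26 and 9 reads, ratio 2.54, 1.16 to 6.17) and for SLC22A20 (11 and 23 reads, ratio 0.421, 0.185 to 0.899). These intervals compare the reads of these libraries and are no test between the groups.

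A list of 50 genes that work with these transporters was set beside them. Of 46 tested, 14 were higher, 18 lower and 14 not called, with 2 higher and 4 lower by at least 2-fold and a median log2 fold change of −0.04. Over all tested genes, 26.8% were called higher and 26.8% lower, with 2.85% higher and 4.79% lower by at least 2-fold. Whether the list differs from these shares was not tested. The smallest p values among the lower genes of the list belonged to SLC29A4, NR0B2 and SLC51B. SLC29A4, which encodes PMAT, a polyspecific cation carrier like SLC22A3, had 9505, 9135 and 9898 reads in control and 3543, 3207 and 4058 in PELP1-KD (log2 fold change −1.24, SE 0.04, adjusted p = 1.01e-14). NR0B2 encodes SHP, the repressor that the bile acid receptor FXR induces, and had 412, 412 and 447 reads against 77, 66 and 99 (log2 fold change −2.23, SE 0.11, adjusted p = 1.10e-12). SLC51B, named OSTBETA in the tables, encodes a subunit of the basolateral bile acid exporter that FXR also induces, and fell to 65.2% of control (log2 fold change −0.62, SE 0.05, adjusted p = 4.87e-09).

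The higher genes with the smallest p were MYO5B, STX3 and AKR1D1. MYO5B, a motor, and STX3, a membrane fusion protein, serve the delivery of canalicular transporters to the apical membrane. MYO5B had 1128, 1095 and 1135 reads in control and 1875, 1673 and 1965 in PELP1-KD (log2 fold change 0.88, SE 0.05, adjusted p = 3.86e-12). STX3 had a log2 fold change of 0.60 (SE 0.03, adjusted p = 6.83e-12). AKR1D1, a reductase of bile acid synthesis, rose to 138% of control (log2 fold change 0.47, SE 0.05, adjusted p = 5.30e-07). Of 11 tested nuclear receptors and liver factors, 2 were higher, 5 lower and 4 not called. Among those picked with their values known, HNF4A rose to 118% (0.23, adjusted p = 1.37e-05), the FXR gene NR1H4 fell to 89.0% (−0.17, adjusted p = 0.00201), and AHR was not called (0.05, adjusted p = 0.242). The bile acid synthesis genes CYP7A1 and CYP8B1 and the receptor gene NR1I3 were among the 4 genes of the list with too few reads to test.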

How the data were processed

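RNA-seq of Hep3B cells was compared between 3 control and 3 PELP1-KD libraries, grouped by the treatment label. The authors deposited estimated counts per gene of hg19, 1 table per library, without normalization. The table headers name featureCounts v1.5.0-p1, run on exons and by strand, which dropped reads of mapping quality under 2 and split reads of several places or genes into fractions, so values of genes with near-identical copies are less certain. The submitters' processing notes name HISAT2, the study's methods TopHat2 and HTSeq. The sources also differ in how RNA was extracted, whether reads were paired, and how ribosomal RNA was avoided.

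Values were rounded to whole numbers. Genes passing filterByExpr were fitted with edgeR 4.0.16 (R 4.3.3; TMM, robust glmQLFit, glmQLFTest), with Benjamini-Hochberg adjustment over 14537 genes and a threshold of 0.05. The SE was taken from the log2 fold change and the F statistic (absolute value over the root of F), and its median over all genes was 0.0632. Normalized reads are reads over TMM-scaled size factors. Intervals of read ratios are exact binomial at 95%.

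The genes named were every called member changed at least 2-fold with 100 normalized reads, the 8 smallest p in each direction, the 8 highest levels, 22 liver transporters fixed by name, and 3 related genes in each direction. Any other gene given with values was chosen with them in view. The values of a few genes are not reported here. The members and lists were chosen with earlier results of these data known. Promoter windows are from RefSeq on GRCh38.p14, and 62 of the 89 members had at least 1. Alternatives were DESeq2 1.42.0, 2 other normalizations, 2 other filters, the replicate block and each library left out. Deviations of same-numbered libraries from their group means correlated at 0.333, 0.242 and 0.665 over 6397 genes, which are not independent. Control replicate 2 with PELP1-KD replicate 1 gave 0.419, above the same-numbered pairs of replicates 1 and 2. Whether the numbers are pairs is thus not settled. The main fit did not use them, and only the replicate block took them as pairs. Replicates differed by more than sampling noise (chi-square per degree of freedom 1.94 to 7.02). The fits were checked on simulated data.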

Additional observations from a re-analysis of the deposited data

How the results depend on the processing

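Under the 12 alternatives the number of members called higher was 16 to 19, the number called lower 15 to 19 and the number changed at least 2-fold 6 to 10, the lowest with at least 10 reads in every library. Of the 34 called members 28 kept their call under every alternative that tested them, and 6 lost it under at least 1 (among them ABCB4, ABCC4, ABCC9, SLC22A10 and SLC22A4). With the replicate block 18 members were higher and 19 lower, and the block added the calls of SLC47A1, ABCF2 and SLC10A7 and changed no other call of a member. PELP1 was −0.0831 with the block and −0.10 to −0.04 with each library left out. The median of the members was −0.0980 to −0.0358 with each library left out, nearest 0 without control replicate 3. With each library left out, the sign turned for 2 members that were not called, ABCG5 among them (−0.4068 to 0.2219, positive without control replicate 3). The cause was not tested. Depth limits the values of the 18 tested members with means under 100 normalized reads and of the 32 not tested.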
